A study of Mus musculus with 6 samples.

Results

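The integrated stress response regulators and stress hormones described here are 10 genes, picked by name as a pathway: the transcription factor genes Atf4, Atf5 and Ddit3, the kinase gene Eif2ak3, the feedback genes Ppp1r15a and Trib3, the growth brakes Sesn2 and Ddit4, and the hormone genes Fgf21 and Gdf15. They are 10 of 54532 genes in the deposited table. The names occur in 11 rows, since Ddit3 has a second row without a read in any library. RNA was sequenced from wild-type 3T3 cells, a mouse fibroblast line, labelled as adipocytes. Of the 6 samples, 3 had received 200 µM baicalin, a flavone glucuronide, and 3 had received DMSO, the vehicle. The labels name neither the subline, nor how the cells became adipocytes, nor how long they were treated. Whether the 3 replicates of a treatment were grown apart is unstated too, so each p-value speaks only of the variation among these 6 libraries, and part of it may be technical.

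The integrated stress response is the pathway by which kinases that sense different stresses phosphorylate the translation initiation factor eIF2. General protein synthesis then slows, while the messenger RNA of ATF4 is translated more. ATF4, alone or with CHOP, the product of Ddit3, turns on genes of amino acid supply and of feedback, among them Ppp1r15a, whose product GADD34 brings a phosphatase back to eIF2. FGF21 and GDF15 are hormones that stressed cells secrete. FGF21 is known to act on fat tissue, and GDF15 on the hindbrain. The data measure RNA only, so neither the phosphorylation of eIF2 nor the amount of ATF4 protein was measured.

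Libraries held 17598666 to 18326874 counts in the baicalin group and 16730594 to 17711950 in the DMSO group. Replicates varied more than counting alone allows (chi-square per degree of freedom from 2.83 to 4.35). The cell type label was only partly borne out by marker transcripts. Of 10 markers of mature adipocytes, 4 (Lep, Slc2a4, Cfd and Retn) were below 1 CPM, the count scaled to a common library size, in every library. The summed level of the 10 lay between 802 and 818 CPM in baicalin libraries and between 1801 and 1972 CPM in DMSO libraries. With enough reads to test were 6, of which 5 were called lower in baicalin. Their log2 fold changes ran from -0.35 (Pparg) to -3.54 (Adipoq), while Cebpa (0.68) was not called. The 6 fibroblast markers summed to 14796 to 15153 CPM in baicalin and 17150 to 17790 CPM in DMSO. They were split in the test described below, with 3 called higher in baicalin (Thy1, Col3a1 and Vim) and 3 lower (Pdgfra, Col1a1 and Col1a2). Their median log2 fold change was -0.10. Of 6 macrophage markers, the defining genes Ptprc and Adgre1 stayed below 1 CPM throughout, while the sum was 104 to 105 CPM in baicalin and 24.02 to 26.92 CPM in DMSO, most of it from Cd14. In such bulk samples fewer cells of a type and less RNA per cell cannot be told apart, and the part of these marker differences in the results below was not tested. The share of mitochondrial counts was 1.26% to 1.36% in baicalin and 1.59% to 1.87% in DMSO.

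The comparison asks how baicalin changes the transcripts of this pathway. All 10 genes had higher values in each baicalin library than in any DMSO library, a separation that 35.1% of all tested genes showed in the same direction. Of the 10, 9 had enough reads to test and each of these was higher in baicalin (edgeR's quasi-likelihood test with Benjamini-Hochberg adjustment over all tested genes, adjusted p under 0.05). None of the 9 was lower. Of all tested genes, 33.6% were called higher and 34.1% lower. With scaling by library size alone the 9 were called higher against 25.3% of tested genes (3472 higher and 5811 lower, beside 4618 and 4676 with TMM scaling), and with length and GC trends removed against 32.8%. A rise of at least 2-fold was reached by 5 (Fgf21, Trib3, Atf5, Ddit4 and Atf4), against 5.24% of all tested genes. With length and GC trends removed it was 3, since Ddit4 (log2 fold change 0.92) and Atf4 (0.88) were then under 2-fold, against 4.7% of tested genes. The median log2 fold change was 1.15 over the 9, beside 0.00 over all 13728 tested genes. Fgf21 passed the filter on low counts through its baicalin libraries alone, so its place among the 9 required a difference. Gdf15 did not pass.

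**Figure D1:**
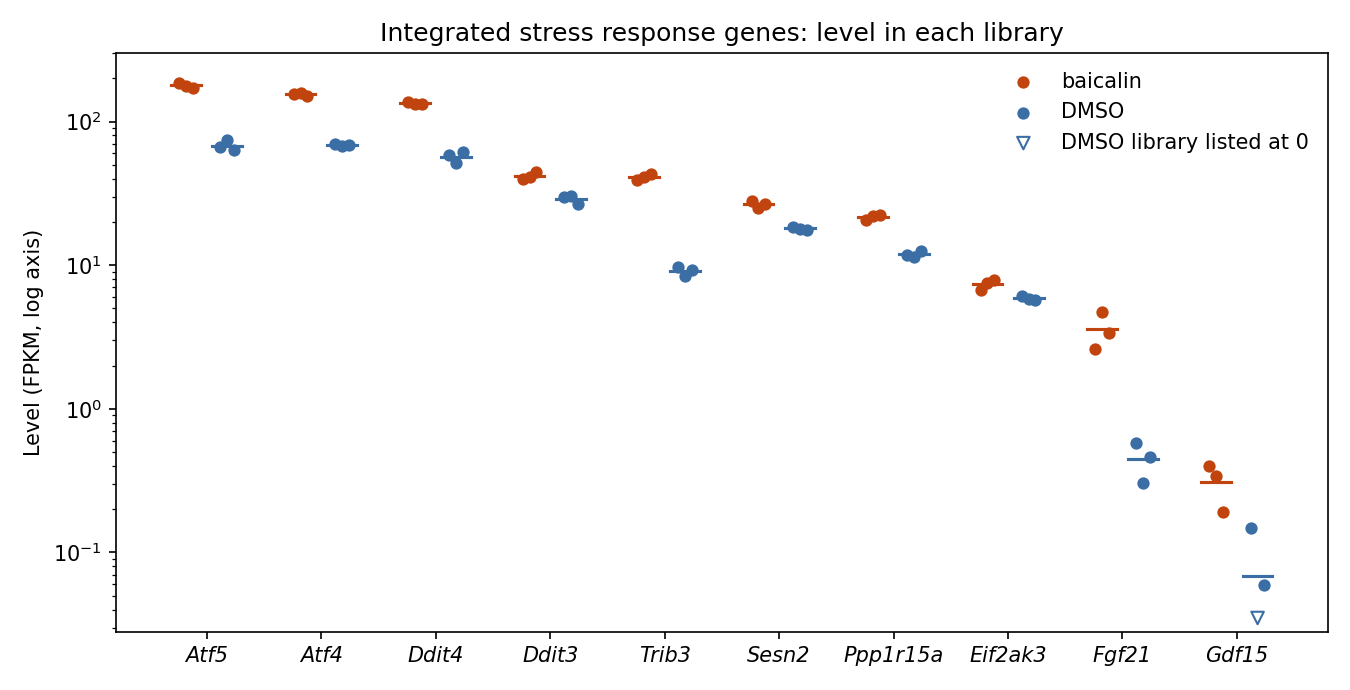
Level of each of the 10 genes in FPKM (log axis), with 1 point per library, baicalin in red left of DMSO in blue, and a bar at the mean of the 3 libraries. The open triangle marks the DMSO library in which Gdf15 was listed at 0, drawn at the foot of the axis. Every baicalin point lies above every DMSO point of the same gene, with Atf5 highest in baicalin (178 FPKM) and Gdf15 lowest in both groups.

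Atf4 (ENSMUSG00000042406, chromosome 15, 80255184 to 80257541, plus strand, mm10) encodes the main transcription factor of the pathway. Its level was 361, 368 and 349 CPM in the baicalin libraries, against 164, 159 and 161 CPM in the DMSO libraries. The groups stood far apart compared with the spread within them, and the log2 fold change was 1.15 (SE 0.04, adjusted p = 1.11e-31), a 2.22-fold rise. Atf5 (ENSMUSG00000038539, chromosome 7, 44812256 to 44816658, minus strand) encodes a related factor that is likewise regulated through its translation and is known from mitochondrial stress. It stood at 363, 346 and 338 CPM in baicalin, against 130, 148 and 125 CPM in DMSO. Here too no DMSO library came near the baicalin values, and the rise was 2.59-fold (log2 fold change 1.37, SE 0.05, adjusted p = 5.34e-20). Exons of Atf5 overlap those of Nup62 on the opposite strand over 82 bases, and Nup62 had 1070 to 1099 reads in baicalin and 713 to 814 in DMSO, fewer than Atf5 in each library.

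Ddit3 (ENSMUSG00000025408, chromosome 10, 127290774 to 127296288, plus strand), which encodes CHOP, a partner of ATF4 that in lasting stress favours cell death, moved less. It had 66.7, 69.7 and 75.5 CPM in baicalin, against 51.0, 51.5 and 45.3 CPM in DMSO. The groups did not overlap, and the rise was 1.43-fold (log2 fold change 0.52, SE 0.06, adjusted p = 1.74e-11). Its counts are uncertain where exons are shared. Of its 1713 exon bases, 105 overlap with the second Ddit3 entry and 68 with exons of Mars on the opposite strand. Mars, the methionyl-tRNA synthetase gene, is itself a target of ATF4. Mars had 2457, 2466 and 2433 reads in baicalin and 1245, 1109 and 1260 in DMSO, more than Ddit3 in every library, and the library kit named in the labels does not mark strand, so reads from the shared bases cannot be told apart.

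Eif2ak3 (ENSMUSG00000031668, chromosome 6, 70844515 to 70905245, plus strand) encodes PERK, the eIF2 kinase of the endoplasmic reticulum. It showed the smallest change of the 9 tested genes. Its level was 39.7, 44.6 and 46.8 CPM in baicalin, against 36.3, 34.9 and 34.5 CPM in DMSO. The lowest baicalin library was close to the highest DMSO library, although the groups did not overlap, and the log2 fold change was 0.31 (SE 0.07, adjusted p = 4.93e-05), a 1.24-fold rise. With scaling by library size alone, which moves the median of all genes by -0.13, it was 0.18 and still called (adjusted p = 0.0157). Of all tested genes 27.3% had a larger log2 fold change.

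Among the feedback genes Trib3 changed most. Trib3 (ENSMUSG00000032715, chromosome 2, 152337422 to 152344032, minus strand) encodes a pseudokinase that ATF4 and CHOP induce and that holds back both ATF4 and the kinase AKT. Its level was 81.9, 86.3 and 90.3 CPM in baicalin, against 20.3, 17.7 and 19.6 CPM in DMSO. The rise was 4.49-fold (log2 fold change 2.17, SE 0.06, adjusted p = 8.88e-35), and 0.969% of the tested genes had a larger one. Ppp1r15a (ENSMUSG00000040435, chromosome 7, 45522916 to 45526268, minus strand), the gene of GADD34, stood at 58.7, 64.0 and 64.1 CPM in baicalin, against 34.5, 33.1 and 36.8 CPM in DMSO. This was a 1.79-fold rise (log2 fold change 0.84, SE 0.06, adjusted p = 5.78e-18), intermediate between those of Ddit3 and Atf4.

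Both growth brakes act on mTORC1, the kinase complex that couples nutrients to growth. Ddit4 (ENSMUSG00000020108, chromosome 10, 59949669 to 59951834, minus strand) encodes REDD1, which restrains mTORC1 through the TSC complex and is also known to respond to hypoxia and glucocorticoids. It had 234, 231 and 230.2 CPM in baicalin, against 102, 89.2 and 107 CPM in DMSO. The baicalin libraries were nearly equal and the DMSO libraries more spread, and the rise was 2.33-fold (log2 fold change 1.22, SE 0.05, adjusted p = 2.51e-23). Sesn2 (ENSMUSG00000028893, chromosome 4, 132492032 to 132510501, minus strand) encodes sestrin 2, a leucine sensor that inhibits mTORC1 through GATOR2. Its level was 94.97, 85.37 and 90.98 CPM in baicalin, against 63.6, 62.0 and 61.0 CPM in DMSO. This was a 1.45-fold rise (log2 fold change 0.54, SE 0.05, adjusted p = 8.09e-14). With trends on transcript length and GC content removed from each library, Sesn2 was at 0.33 (adjusted p = 4.63e-08) and Ddit4 at 0.92.

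Both hormone genes had few reads. Fgf21 (ENSMUSG00000030827, chromosome 7, 45613886 to 45615490, minus strand) had 40, 79 and 54 reads in the baicalin libraries, against 10, 5 and 8 reads in the DMSO libraries, or 3.34 ± 1.04 CPM and 0.422 ± 0.129 CPM (SD, n = 3 each). The baicalin libraries differed from each other by more than for any other tested member, yet the lowest was above the highest DMSO library. The log2 fold change was 2.96 (SE 0.34, adjusted p = 5.27e-11), the largest of the 9, and its 95% interval ran from 2.28 to 3.64. On the log2(FPKM + 1) scale, which understates changes of low genes, it was 1.64. The summed reads, 173 in baicalin and 23 in DMSO, gave a scaled ratio of 7.92 with an exact 95% interval from 5.11 to 12.8 for counting error only. Gdf15 (ENSMUSG00000038508, chromosome 8, 70629393 to 70632456, minus strand) had 12, 11 and 6 reads in baicalin, against 5, 0 and 2 reads in DMSO. The groups did not overlap, with 6 reads in the lowest baicalin library and 5 in the highest DMSO library. Its 29 and 7 summed reads gave a scaled ratio of 4.36 (exact 95% interval from 1.87 to 11.8, counting error only), and an exact two-sided permutation test of the 3 against 3 CPM values gave p = 0.1, the smallest this design allows. Without the low-count filter it was called in edgeR (log2 fold change 2.11, adjusted p = 0.0115) but not in DESeq2 (2.15, adjusted p = 0.0523). A DMSO library without a Gdf15 read allows a level of up to 0.172 CPM.

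**Figure D2:**
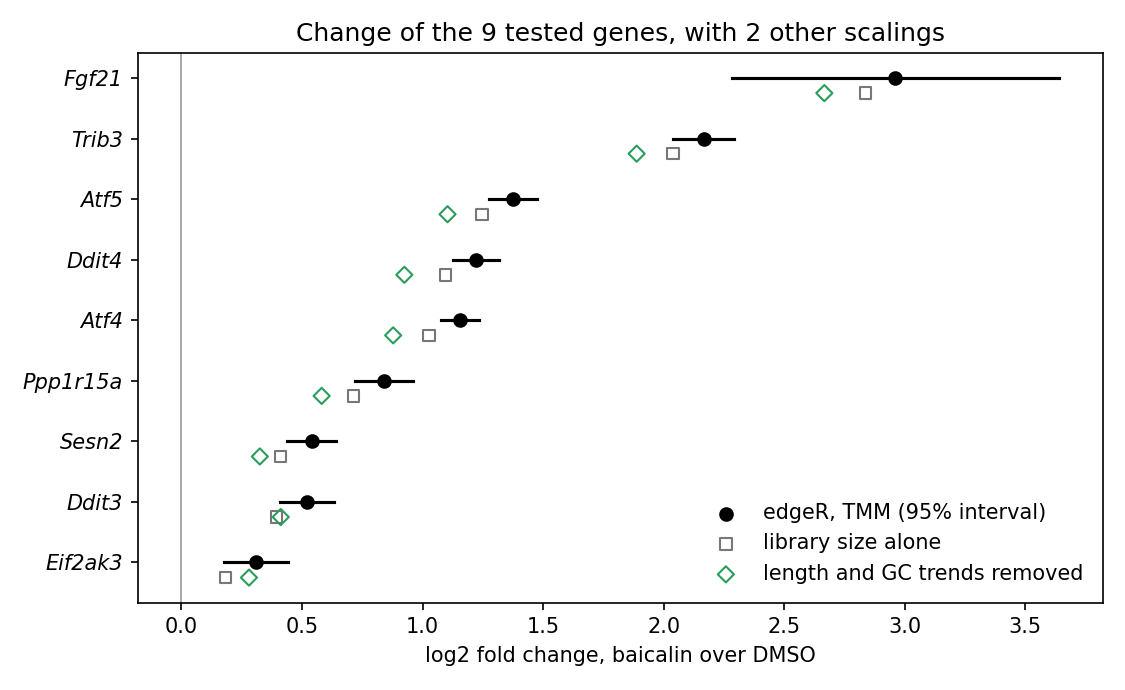
Log2 fold change of the 9 tested genes, baicalin over DMSO. Black points with bars are the edgeR estimates with 95% intervals, grey squares the values with scaling by library size alone and green diamonds those with length and GC trends removed. The genes run from Fgf21 (2.96) at the top to Eif2ak3 (0.31) at the bottom, and both other scalings lie below the black point for every gene.

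The members can be compared with each other on the FPKM scale, which is per transcript length. In baicalin Atf5 was highest at 178 ± 7.37 FPKM, followed by Atf4 at 155 ± 3.96 and Ddit4 at 134 ± 1.90 FPKM (SD, n = 3 each). In DMSO Atf4 (69.0 ± 1.22 FPKM) and Atf5 (68.0 ± 6.15 FPKM) did not differ beyond their spread, and Ddit4 stood at 57.0 ± 5.26 FPKM. Trib3 was the seventh of the 10 in DMSO, at 9.10 ± 0.65 FPKM and below Ddit3, Sesn2 and Ppp1r15a. In baicalin it had passed Sesn2 and Ppp1r15a and, at 41.3 ± 1.88 FPKM, overlapped with Ddit3 at 42.0 ± 2.54 FPKM, the only neighbours in the baicalin order whose ranges overlapped. Eif2ak3, Fgf21 and Gdf15 were the lowest 3 in both groups, in that order.

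Expressing each gene as a percent of Atf4 in the same library removes the library scaling from the comparison. Trib3 stood at 25.2%, 26.0% and 28.7% of Atf4 in the baicalin libraries, against 13.7%, 12.3% and 13.5% in the DMSO libraries. Trib3 thus stood higher in relation to Atf4, as did Fgf21 (2.30% ± 0.68 in baicalin and 0.646% ± 0.188 in DMSO) and Atf5 (115% ± 3.88 and 98.7% ± 10.2, SD, n = 3 each), the last with its lowest baicalin library at 111% and its highest DMSO library at 110.4%. The opposite held for Eif2ak3, at 4.31%, 4.75% and 5.24% of Atf4 in baicalin, against 8.67%, 8.59% and 8.38% in DMSO. Relative to Atf4, Ddit3 (27.1% ± 2.33 in baicalin and 42.0% ± 3.05 in DMSO), Sesn2 (17.1% ± 1.17 and 26.1% ± 0.43) and Ppp1r15a (13.9% ± 0.83 and 17.3% ± 0.88) were lower in baicalin as well, without overlap. The ratio of Ddit4 overlapped between the groups, at 86.8% ± 2.10 in baicalin and 82.6% ± 6.93 in DMSO. For each of the 7 ratios without overlap the exact two-sided permutation test gave p = 0.1, the smallest possible with 3 against 3, and an adjusted p of 0.129 over 9 ratios, so none passes 0.05. Those of Ddit4 (exact permutation p = 0.5) and Gdf15 (exact permutation p = 0.2) overlapped between the groups. With length and GC trends removed, the difference from Atf4 in log2 fold change kept its sign for the 8 genes and was smallest in size for Ddit4 (0.05), beside 1.01 for Trib3 and -0.60 for Eif2ak3.

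**Figure D3:**
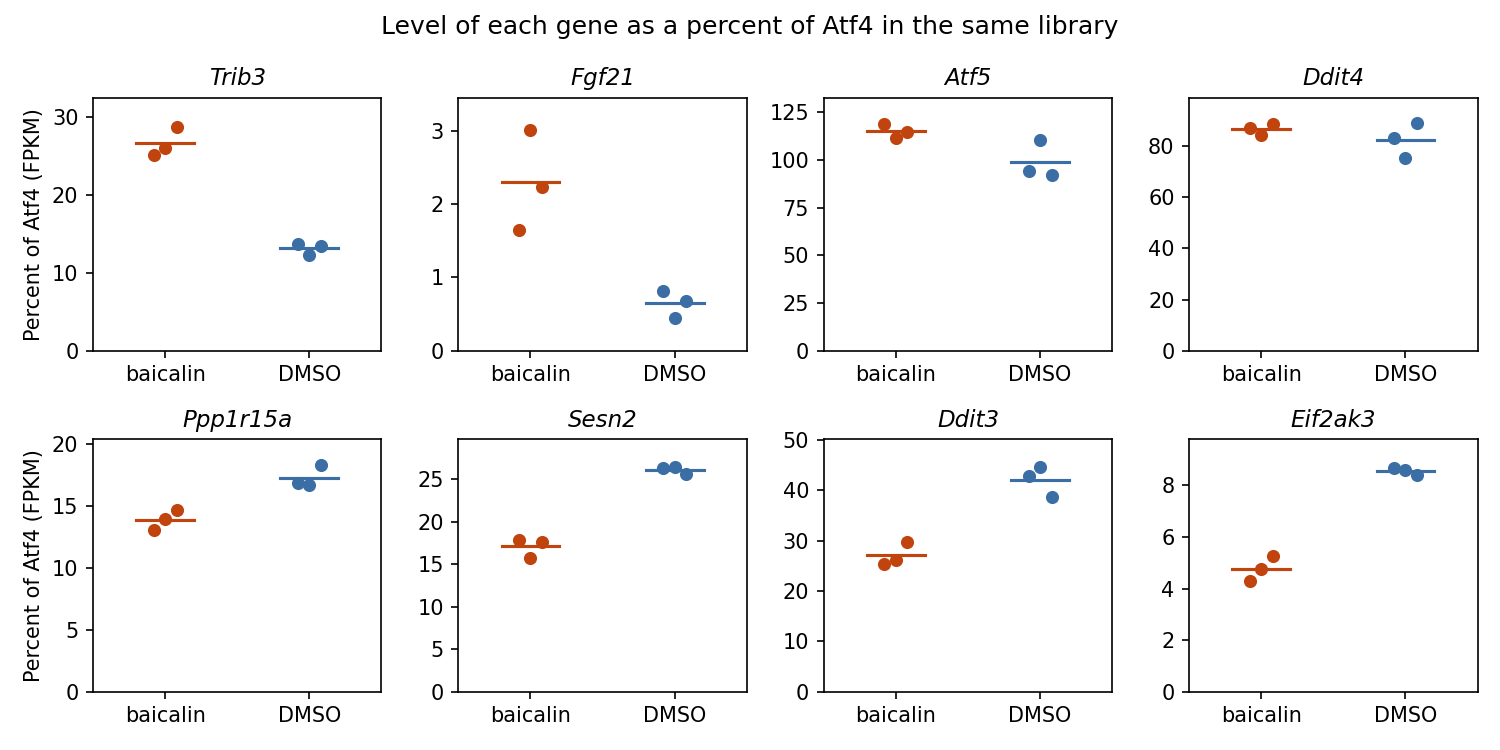
Level of 8 genes as a percent of the Atf4 level in the same library (FPKM, linear axes from 0), with 1 point per library and a bar at the mean, baicalin left of DMSO. The upper row holds genes whose mean ratio was higher in baicalin, with Trib3 at 26.7% against 13.2% in DMSO, and the lower row those whose ratio was lower, with Eif2ak3 at 4.77% against 8.55%.

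The libraries of the baicalin group did not order the members in a single way. Replicate 1 was the lowest of the 3 for Ddit3, Trib3, Ppp1r15a, Eif2ak3 and Fgf21 and the highest for Atf5, Sesn2, Gdf15 and Ddit4. Without it, the log2 fold change of Eif2ak3 was 0.39 and that of Fgf21 3.16. On leaving out each library in turn, the 9 tested genes stayed called.

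Promoter sequences were searched for a string of the element that ATF4 is known to bind, and the matches are printed. RefSeq promoter windows (GRCm38.p6, 250 bases before to 50 bases after each start) were found for 10 of 10 members, 12 windows in all, because Atf5 and Gdf15 have more than 1 start. The C/EBP-ATF response element, searched as TGATGNAA on both strands, was found in the windows of Fgf21 and Trib3. It was found in 3.97% of all 32851 promoter windows. In Fgf21 the match lies 139 to 132 bases before the start (chr7:45615622-45615629). In Trib3 it lies 15 to 22 bases after the RefSeq start (chr2:152344039-152344046), but before the GENCODE start given above (152344032). Both run on the strand opposite to the gene, so that they read as the reverse complement below, in capitals, first the 250 bases before the Fgf21 start (chr7:45615491-45615740, minus strand) and then the Trib3 site with its flanks (chr2:152344028-152344057, minus strand).
Fgf21: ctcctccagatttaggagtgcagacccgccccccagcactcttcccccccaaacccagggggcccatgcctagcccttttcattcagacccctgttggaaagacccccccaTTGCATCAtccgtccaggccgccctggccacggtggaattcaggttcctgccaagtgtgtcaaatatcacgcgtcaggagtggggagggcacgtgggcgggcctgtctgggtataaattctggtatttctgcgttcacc
Trib3: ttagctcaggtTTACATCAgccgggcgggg

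The full cyclic AMP response element, TGACGTCA, to which bZIP factors of the ATF and CREB type are known to bind, was found in 1 member, Ppp1r15a, and in 1.79% of all windows. It lies 12 to 5 bases before the start and is in capitals in the last bases before it (chr7:45526269-45526300, minus strand).
Ppp1r15a: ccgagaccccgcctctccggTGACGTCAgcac

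The endoplasmic reticulum stress element, searched on both strands as CCAAT and CCACG with 9 bases of any kind between them, was found in no member and in 0.119% of all windows. The antioxidant element core TGACNNNGC was found in Ppp1r15a and Sesn2 and in 12.4% of all windows, and the core GCGTG of the dioxin-type response element in 6 of 12 member windows, against 32.4% of all. No match in a member overlapped a match of another element. A match is a string of letters and was not shown to be bound. A member without a match may carry a variant of the string or a site outside the window, which were not searched. Over the whole table, 35.1% of 265 tested genes with a TGATGNAA match and 35.7% of 9518 tested genes with a window but no match were called higher.

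The genes around the members were split by role, in lists chosen with earlier results of these data known. Of 36 tested textbook targets of ATF4 and CHOP outside the 10, 33 rose and 3 fell in baicalin. Of all tested genes 33.6% were called higher and 34.1% lower. The median log2 fold change of the 36 was 1.06, beside 0.00 over all tested genes. Of 37 listed, 1, Stc2, had too few reads. The largest rises were those of Slc7a11, the cystine transporter gene (71.2 ± 2.66 CPM in baicalin and 7.25 ± 0.35 in DMSO), Ero1l, an oxidase of protein folding (log2 fold change 2.44), Chac1, which degrades glutathione (1.85), and Slc6a9, a glycine transporter gene (1.72), each with n = 3 per group. The 3 that fell were the transporter genes Slc1a5 (-0.62) and Slc38a2 (-0.09) and the cell death gene Bbc3 (-0.36). These 3 were chosen for naming only once their values were known. Slc38a2 was higher, at 0.18, with length and GC trends removed. The list held 2 lower genes in place of 3 with DESeq2 and on leaving out any baicalin library. All 12 tested targets of the ATF6 and IRE1 branches, the other arms of the unfolded protein response, were higher as well. The share over all tested genes was 33.6%, and the median log2 fold change of the 12 was 1.14. Among them were the chaperone cofactor Sdf2l1 (1.61), the chaperone Hyou1 (1.41), the secreted factor Manf (1.35) and Creld2 (1.29). This list also holds Hspa5, the main chaperone of the endoplasmic reticulum, at 1769 ± 45.6 CPM in baicalin and 763 ± 16.4 CPM in DMSO (SD, n = 3 each), named after its values were seen.

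Of 20 tested genes of the eIF2 step itself, 10 were higher, 5 lower and 5 not called, beside 33.6% higher and 34.1% lower among all tested genes. Their median log2 fold change was 0.18. The kinases that share the substrate of PERK differed. PKR (Eif2ak2), the kinase that senses double-stranded RNA, had 63.8, 59.2 and 59.6 CPM in baicalin, against 111, 115 and 111 CPM in DMSO (log2 fold change -0.88, SE 0.05, adjusted p = 1.67e-22). GCN2 (Eif2ak4), which senses uncharged tRNA, was lower too, at 41.5, 42.3 and 43.3 CPM in baicalin, against 78.7, 82.2 and 75.3 CPM in DMSO (-0.89, SE 0.05, adjusted p = 4.94e-21). Impact, a GCN2 inhibitor gene, fell by 0.83 on the log2 scale, while HRI (Eif2ak1), the kinase of heme and mitochondrial stress, stood at 0.31, or 0.18 with library size alone (named after its value was seen). Exons of Eif2ak1 overlap those of Aimp2 on the opposite strand over 487 bases. Eif2b2, a subunit gene of the exchange factor that recharges eIF2, was the most raised of the list, at 1.26. The constitutive partner of GADD34, Ppp1r15b, was at 152 ± 5.89 CPM in baicalin and 120 ± 0.86 CPM in DMSO (SD, n = 3 each, log2 fold change 0.35, or 0.22 with library size alone, named after its value was seen), a smaller change than the 0.84 of Ppp1r15a. The difference between these changes was not tested.

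Among 16 bZIP factors that pair with ATF4 or CHOP or act beside them, 12 rose and 2 fell in baicalin. The shares over all tested genes were 33.6% higher and 34.1% lower, and the median log2 fold change of the 16 was 0.57. Fosl1, an AP-1 subunit gene, had the largest rise (211 ± 0.63 CPM in baicalin and 27.8 ± 1.75 in DMSO, SD, n = 3 each), but its exons overlap those of Ccdc85b on the opposite strand over 1163 bases. Jun rose by a log2 fold change of 1.40, Cebpb, a partner of both ATF4 and CHOP, by 1.05 and Xbp1, the effector of IRE1, by 0.93. Atf3, a factor induced by ATF4, was low, at 4.22 ± 1.26 CPM in baicalin and 0.794 ± 0.168 CPM in DMSO, and rose by 2.40 (SE 0.28, adjusted p = 1.22e-10, named after its value was seen). The 2 that fell were Atf2 (-0.50) and Creb3l2 (-0.14), named after their values were seen. With length and GC trends removed neither was called lower.

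The paralogs of Sesn2 went the other way. Sesn1 had 32.4, 31.7 and 29.0 CPM in baicalin, against 70.6, 63.2 and 62.7 CPM in DMSO (log2 fold change -1.08, SE 0.06, adjusted p = 1.06e-21). Sesn3 had 155, 160 and 162 CPM in baicalin, against 248, 259 and 264 CPM in DMSO (-0.69, SE 0.04, adjusted p = 1.34e-21), and stood at -0.23 with length and GC trends removed. On the FPKM scale Sesn2 was therefore the highest of the 3 sestrins in baicalin (26.5 ± 1.55, beside 10.6 ± 0.21 for Sesn3 and 7.94 ± 0.48 for Sesn1), while in DMSO Sesn2 (18.03 ± 0.42), Sesn3 (17.0 ± 0.51) and Sesn1 (16.6 ± 1.16) lay close together (SD, n = 3 each). Across the list of mTORC1 control, which holds these paralogs, 5 of 16 tested genes rose and 6 fell in baicalin, and the median log2 fold change was -0.02, which is close to the 33.6% higher, 34.1% lower and median of 0.00 over all tested genes. Eif4ebp1, a translation brake under mTORC1 and a target of ATF4, rose by 1.13, and Flcn, a regulator of mTORC1 at the lysosome, fell by 0.71 on the log2 scale. Library-size scaling left 2 genes of the list higher in place of 5.

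The tribbles paralogs rose with Trib3. Trib2 had 189, 191 and 195 CPM in baicalin, against 60.3, 61.3 and 68.8 CPM in DMSO (log2 fold change 1.60, SE 0.05, adjusted p = 2.49e-34). Trib1 had 45.6, 41.4 and 41.4 CPM in baicalin, against 29.0, 27.7 and 29.3 CPM in DMSO (0.58, SE 0.07, adjusted p = 1.21e-10). On the FPKM scale Trib2 stood at 45.0 ± 0.71 and Trib3 at 41.3 ± 1.88 in baicalin, and at 14.7 ± 1.05 and 9.10 ± 0.65 in DMSO (SD, n = 3 each). Of the AKT kinase genes, Akt1 was at 403 ± 4.20 CPM in baicalin and 436 ± 6.66 in DMSO (log2 fold change -0.11, adjusted p = 0.00628), but it was not called on leaving out baicalin replicate 2 (adjusted p = 0.0652) or replicate 3 (adjusted p = 0.0511), nor without the low-count filter (adjusted p = 0.134). Akt2 was not called (-0.02).

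Receptors for both hormones were measured as well. Fgfr1, the main FGF21 receptor, had 1038, 1053 and 1048 CPM in baicalin, against 699.9, 700.6 and 716 CPM in DMSO (log2 fold change 0.57, SE 0.04, adjusted p = 6.77e-20). Its obligatory co-receptor Klb, known as β-Klotho, had 3, 3 and 0 reads in baicalin, against 1, 9 and 8 in DMSO, and was too low to test, as were Fgfr4 and the GDF15 receptor genes Gfral and Ret. Fgfr2 was lower in baicalin, at 15.2, 13.3 and 15.6 CPM, against 93.0, 103 and 94.3 CPM in DMSO (-2.72, SE 0.06, adjusted p = 1.63e-38), and its exons overlap those of Ctbp2 over 314 bases. Fgfr3 was near the limit of the data (1.98 ± 0.43 CPM in baicalin and 0.797 ± 0.203 in DMSO, n = 3 each, log2 fold change 1.31) and was not called on unfiltered log2(FPKM + 1) values (adjusted p = 0.0743).

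**Figure D4:**
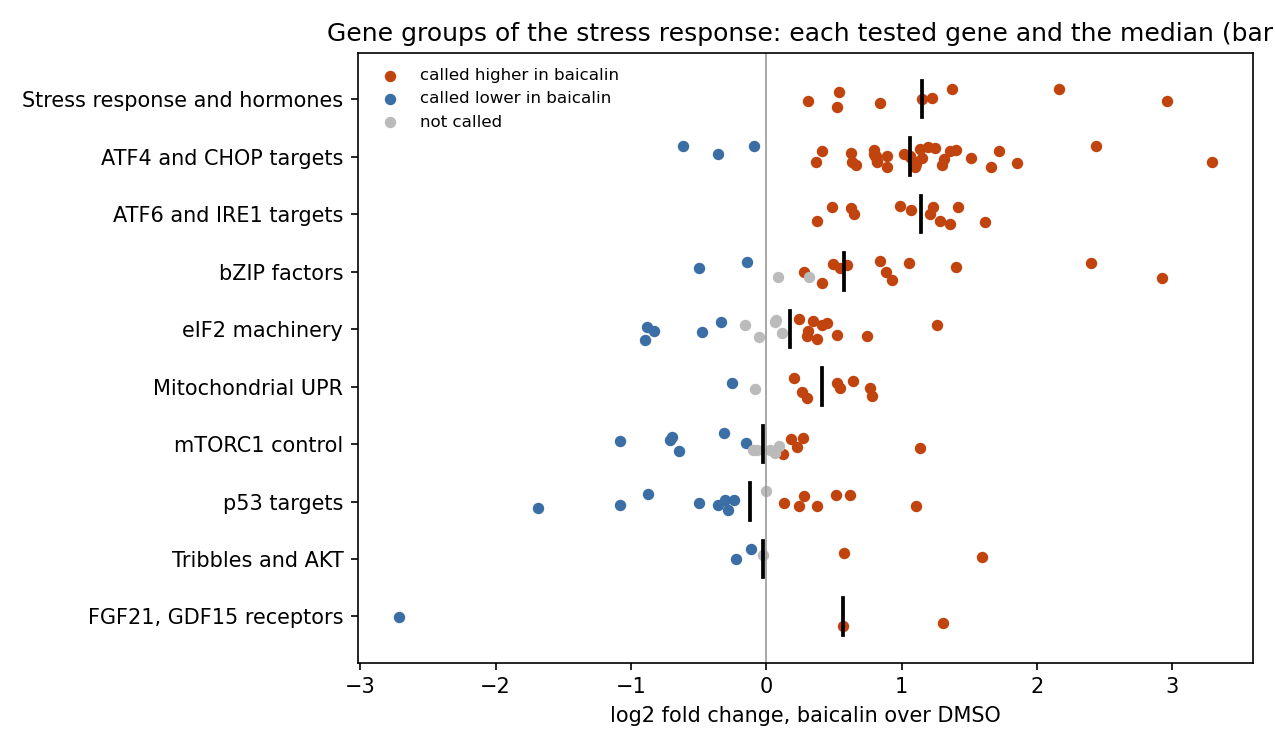
Log2 fold change of each tested gene (baicalin over DMSO) in the 10 stress response and hormone genes, of which 9 were tested, and in 9 related lists, red where called higher in baicalin, blue where called lower and grey where not called, with a black bar at each median. The medians of the ATF4 and CHOP targets (1.06) and of the ATF6 and IRE1 targets (1.14) lie near that of the 9 genes (1.15), whereas those of the mTORC1 control genes (-0.02) and the eIF2 machinery (0.18) lie near 0.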

How the data were processed

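Poly-A RNA of 6 samples was sequenced. The deposited counts are reads per gene from featureCounts 1.5.0-p3, per the series design text. The submitters' processing notes name mm10 as build. Aligner, annotation and strand setting: not given in the sources used here. The deposited FPKM derive from those counts and gene length, per the same text, and served for levels between genes and as an alternative. The table has 54532 genes and 0 unmatched columns of samples. Coordinates and exon overlaps come from GENCODE M21 (GRCm38), promoters from RefSeq.

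The test was edgeR 4.0.16's quasi-likelihood test (R 4.3.3; filterByExpr at 0.566 CPM in 3 libraries, TMM, robust) with a single treatment term and Benjamini-Hochberg adjustment over 13728 genes at 0.05. All fold changes are relative to TMM scaling, and CPM values are TMM-scaled. On simulated counts the test called 36% of genes changed 1.2-fold, 68% at 1.5-fold, 88% at 2-fold and 100% at 4-fold, and made 9 calls in 13528 genes left as they were. Only 50 genes were changed at each fold, with equal numbers raised and lowered. In the data 67.7% of tested genes were called, so the 9 calls do not measure the false calls of this comparison. Exact permutation tests used scipy 1.17.1.

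The 10 genes and the lists were chosen with earlier results of these data known. Named genes are the 10, the 4 largest called changes of each list at a mean of at least 5 CPM, every gene of lists of 7 or fewer, cell type markers, and the 3 profiles nearest to Atf4 and to Ddit3. Some genes that this rule names are not reported here. No member has a near-identical copy (at least 90% over 200 bases) except the overlapping Gm43292, with at most 6 reads, for Eif2ak3. Alternatives were DESeq2 1.42.0, limma 3.58.1 (voom, and trend on log2(FPKM + 1) or log2(FPKM + 0.1)), other scalings and filters, the replicate number as a block, each library left out, and, added after seeing the data, length and GC trends removed (lowess, span 0.3). A gene without a read is limited by 3 counts of the TMM-scaled library size, and intervals cover counting error only.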

Additional observations from a re-analysis of the deposited data

How the results depend on the processing

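All 17 alternatives kept each of the 9 tested genes higher and called (153 of 153 comparisons), with 9 or 10 genes called higher and none lower. The tenth was Gdf15. It entered the test without the filter, and on leaving out baicalin replicate 3 or any 1 DMSO library, at log2 fold changes from 1.53 to 3.18, and was not called by DESeq2 or on unfiltered log2(FPKM + 1) values (0.29, adjusted p = 0.0588). Gdf15 reached the filter level in 2 baicalin libraries and 0 DMSO libraries. On leaving out a library it thus passed through baicalin alone, and its place in those runs required a difference. Some log2 fold changes moved by over 1.5 times, taken as a ratio. They were those of Eif2ak3 with library size alone (0.18) and Sesn2 with length and GC trends removed (0.33). That of Fgf21 on the log2(FPKM + 1) scale (1.64) moved as much. Library size alone moved the median of all tested genes by -0.13, and the log2(FPKM + 1) scale understates changes of low genes. The cause for Sesn2 was not tested. Leaving out each library gave 0.27 to 0.39 for Eif2ak3 and 2.71 to 3.18 for Fgf21. Deviations of same-numbered samples had correlations of 0.08, 0.09 and 0.00 over 10272 genes, and those of differently numbered samples ran from -0.10 to 0.03. These small values do not settle whether same-numbered samples were paired. The replicate block gave 4660 genes higher and 4731 lower, beside 4618 and 4676, and 9 members called. Library size alone gave 3472 higher and 5811 lower. Of 306 list counts, 14 moved by over 1.5 times. Depth limits Gdf15, Klb and the GDF15 receptor genes.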

Other observations

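Sesn2, Ddit4 and Gdf15 can also be induced by p53, and a list of other p53 targets was split. Of 15 tested targets, leaving out the p53 gene itself, 6 were higher, 8 lower and 1 not called in baicalin, beside 33.6% higher and 34.1% lower among all tested genes. Their median log2 fold change was -0.23. Trp53inp1, which takes part in autophagy and cell death, was at 92.3 ± 2.36 CPM in baicalin and 298 ± 6.25 CPM in DMSO, and the cyclin gene Ccng1 at 134 ± 2.60 and 245 ± 3.30 CPM (SD, n = 3 each). Both fell, as did Sesn1, while Plk2, a kinase gene, rose by 1.11. With length and GC trends removed 3 targets were called higher in place of 6, and the median was -0.07. The p53 gene itself, Trp53, was at 110 ± 9.02 CPM in baicalin and 71.4 ± 3.00 CPM in DMSO, and was named after its values were seen.

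ATF5 is known from the mitochondrial unfolded protein response. Of 10 tested genes listed for that response, most of them chaperones and proteases, 8 rose and 1, Yme1l1, fell in baicalin. Among all tested genes 33.6% were called higher and 34.1% lower. The median log2 fold change of the 10 was 0.41, below the 1.37 of Atf5. The protease Lonp1 was at 412 ± 4.003 CPM in baicalin and 239 ± 9.39 CPM in DMSO, the chaperone Hspa9 at 795 ± 13.9 and 466 ± 24.5 CPM (SD, n = 3 each), and Dnaja3 and Htra2 rose by 0.64 and 0.55. Htra2 was at 0.30 with length and GC trends removed. Exons of Dnaja3 overlap those of Vasn over 160 bases, and exons of Htra2 overlap those of Aup1 over 753 bases and of Loxl3 over 535 bases, each with more reads. Yme1l1, named after its value was seen, was at -0.25 and turned to 0.30, called higher, with length and GC trends removed.

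Among 9661 protein-coding genes with a mean of at least 5 CPM, profiles over the 6 libraries near to that of Atf4 were those of Nfkbiz (root mean square difference 0.02 in log2 CPM) and Rangap1 (0.03). Nearest to Ddit3 were Cry1 (0.03), Pla2g4a (0.04) and Cd276 (0.04).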
